A study of Piaractus mesopotamicus with 9 samples.

Results

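The autophagy and lysosome genes of pacu (*Piaractus mesopotamicus*) myotubes were compared among the CTR, AA and IGF1 groups. Members were chosen by gene name: the ATG, ULK, WIPI, beclin, ATG8, p62 and BNIP3 names on the autophagy side, and the cathepsin, legumain, LAMP, V-ATPase, mucolipin, glucocerebrosidase and hexosaminidase names, with TFEB and TFE3, on the lysosomal side. A total of 83 names on 308 contigs matched, and 75 genes on 192 contigs had a mean raw count of 10 or more, of 13162 gene names on 35575 contigs tested in all. Of the 75, 31 were autophagy genes, 38 were lysosomal genes, 3 were the transcription factors *tfeb*, *tfe3a* and *tfe3b*, and 3 (*gba2*, *gba3* and *ulk4*) matched by name without an established role in either process. The 8 names under the minimum were *atg4db*, *atp6v0a1b*, *atp6v1ab*, *ctsl.1*, *ctsl.1(1ofmany)*, *gla*, *map1lc3c* and *map1lc3cl*. The genes nearest to the minimum were *gba3* inside it, with a mean raw count of 12.33, and *atg4db* outside it, with 5.56.

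Messenger RNA of cultured fast-twitch muscle cells was sequenced in 9 libraries, 3 in each group, with 20 juvenile fish pooled per culture. The study states 3 independent cell cultures, and whether the groups share them is not given in the sources used here. The cultures were grown for 8 days, to the stage of myotube formation, and were then kept for 12 h without amino acids. The controls were therefore themselves nutrient-restricted. CTR cells stayed in the amino acid-free medium to 36 h in all, AA cells received a medium with amino acids for 24 h, and IGF1 cells received the amino acid-free medium with recombinant gilthead sea bream IGF1 at 100 ng/mL for 24 h. Another field of the sample labels gives 12 h for the supplementation, and the AA medium was built on a different base (DMEM) than the amino acid-free medium, so amino acids and the rest of that base cannot be told apart. Because these were bulk cultures, fewer cells of a type and less RNA per cell cannot be told apart.

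Autophagy delivers cytoplasm to the lysosome for breakdown. The ULK kinase complex starts the process, the beclin complex makes a phosphorylated lipid that WIPI proteins read, and the ATG conjugation enzymes attach ATG8 proteins to the growing membrane, where receptors such as p62 (*sqstm1*) and BNIP3 bring in cargo. The lysosome is acidified by the V-ATPase and digests the cargo with cathepsins and glycosidases. In vertebrate muscle, nutrient shortage is known to raise autophagy, while amino acids and IGF1 act through mTORC1 and AKT to restrain it, and TFEB and TFE3 switch on many of these genes.

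Total raw counts ranged from 1366043 in AA replicate 3 to 53525876 in IGF1 replicate 3, a ratio of 39.2. The members' contigs took 0.888% to 1.079% of the counts of a library. In AA replicate 3 the median member had 26 raw counts, 22 members had fewer than 10 counts and 3 had none, so low members are weakly measured in that library. Replicates differed beyond sampling noise in every group (chi-square per degree of freedom of 3.60 to 12.13), and none was counted as a duplicate. Of the muscle markers, 22 of 25 names were tested, and their summed normalized count was 4168 to 4650 in CTR, 6987 to 10588 in AA and 4000 to 4371 in IGF1. Of these 22, 15 were called higher and 1 lower in AA (median log2 fold-change 1.24), and 3 higher and 1 lower in IGF1, where 16 were above 0 (median 0.27). The 11 fibroblast markers summed to 189900 to 204567 in CTR, 181659 to 205576 in AA and 261243 to 284122 in IGF1, where 7 of them were called higher (median 0.56), against 2 in AA (median −0.04). The 5 genes on the adipocyte list summed to 1636 to 1851 in CTR, 397 to 478 in AA and 436 to 449 in IGF1. In both treatments the only genes of this list called were the leptin genes *lepa* and *lepb*, both lower. Of the 5, 3 were above 0 in IGF1 (median 0.52) and 1 in AA (median −1.03). Whether leptin marks adipocytes in these fish cells was not tested, so the sums are not a measure of adipocytes. Of 7 names of white blood cell markers, the cells richest in lysosomes, only *itgb2* passed the minimum count, at 14.2 to 31.7 over the 9 libraries, and the single red blood cell name did not. The summed level of 6 endothelial markers was 329 to 341 in CTR, 232 to 466 in AA and 365 to 417 in IGF1, and that of 2 Schwann cell and neuron markers was 212 to 316, 588 to 731 and 399 to 461. The part of these shifts in the results below was not tested.

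Against CTR, 16 of the 75 members were called in AA or IGF1, and 55 were called neither there nor between AA and IGF1. The matching shares of all genes over several comparisons were not computed, so these 2 counts have no background. Shares for each comparison follow. A member was called when the edgeR quasi-likelihood F test gave a Benjamini-Hochberg adjusted p of 0.05 or less over all contigs, and it is represented by the contig with the most counts. Where a call is said below to be lost without certain libraries, these are not all the alternative settings that lost it. In AA, 11 of 75 members were called (14.7%, against 13.1% of all genes tested), 3 higher and 8 lower. The 8 are 10.7% of the members, where 6.57% of all genes were called lower and 6.56% higher. The split in AA was 4 higher and 5 lower without normalization beyond the library size, and 3 and 4 with limma. In IGF1, 7 members were called (9.33%, against 6.42% of all genes), 1 higher and 6 lower. The 6 are 8.0% of the members, where 3.31% of all genes were called lower and 3.11% higher. Between AA and IGF1, 9 members were called (12.0%, against 9.03%), 3 higher in AA and 6 lower (4.23% and 4.8% of all genes). This split depended on the scaling, with 6 higher and 2 lower without normalization beyond the library size and 4 of each with limma. At an unadjusted p of 0.05 or less, 24, 21 and 24 members passed in the same order of comparisons. The share of all genes that passed unadjusted was not computed, here or for the wider lists, so these counts have no background beside them. AA and IGF1 share the CTR libraries, so the first comparisons are not independent of each other.

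**Figure D1:**
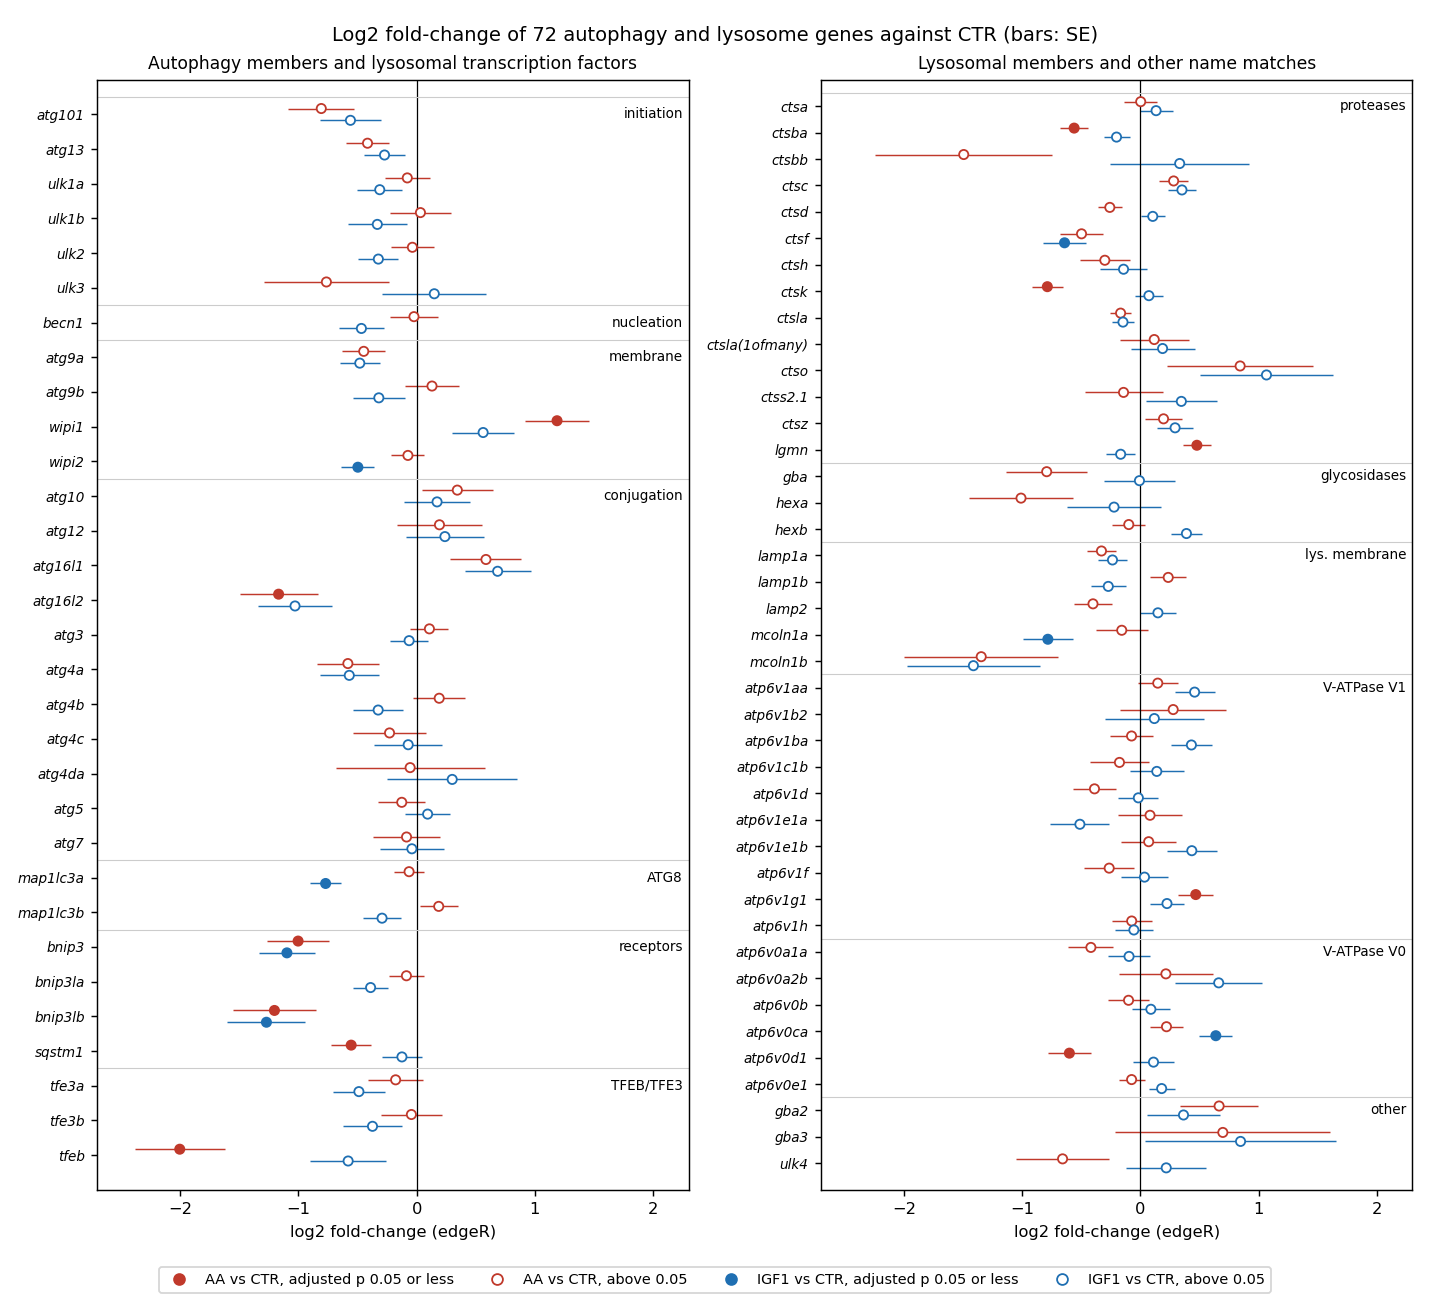
Log2 fold-change against CTR (x axis, edgeR, bars are SE) of 72 of the 75 members (y axis), grouped by role, in AA (red) and IGF1 (blue), with 3 libraries per group. Filled points mark the 11 genes called in AA and the 7 called in IGF1 at the adjusted p threshold of 0.05, and *bnip3* and *bnip3lb* are filled in both.

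With the fold-change minimum of 2 that the study used, 5 members were differentially expressed in AA (6.67%, against 7% of all genes, 4.03% up and 2.96% down): *wipi1* was up-regulated, and *tfeb*, *bnip3lb*, *atg16l2* and *bnip3* were down-regulated. In IGF1 there were 2 (2.67%, against 2.93%, 1.3% up and 1.63% down), *bnip3* and *bnip3lb*, both down-regulated. The comparison of AA with IGF1 gave 1 (4.76% of all genes, 2.7% higher and 2.05% lower in AA), *tfeb*, lower in AA. The libraries of AA and CTR did not overlap for 28 members, 6 higher and 22 lower (32.5% of all genes, 16.4% higher and 16.2% lower), and those of IGF1 and CTR for 34 members, 10 higher and 24 lower (30.2% of all genes, 16.3% higher and 13.9% lower). AA and IGF1 libraries did not overlap for 27 members, 11 higher and 16 lower in AA (27.6% of all genes, 13% higher and 14.6% lower).

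The median log2 fold-change of the 31 autophagy members was −0.07 in AA and −0.31 in IGF1, beside 0.03 and 0.05 for all genes. In AA, 22 of these 31 were below 0 (71.0%, against 48.3% of all genes). In IGF1, 24 of these 31 were below 0 (77.4%, against 45.2% of all genes). For the 38 lysosomal members the median was −0.12 in AA and 0.11 in IGF1. Of these, 23 of 38 were above 0 in IGF1 (60.5%, against 54.8% of all genes). For the 22 lysosomal members outside the V-ATPase the IGF1 median was 0.03, with 11 of 22 above 0. Between AA and IGF1 the autophagy median was 0.09 and the lysosomal median −0.28, beside −0.02 for all genes, and −0.14 for the 22 outside the V-ATPase. Here 30 of 38 lysosomal members were lower in AA (78.9%, against 51.3% of all genes). In the wider lists described last, the median of 46 other autophagy genes was −0.13 in AA and −0.14 in IGF1, and that of 53 other lysosome genes was −0.15 and 0.0. These are descriptions without a test. Without normalization beyond the library size the median of all genes in AA moved from 0.03 to 0.17 and both AA medians changed sign (0.08 and 0.02). Relative to the median of all genes, the IGF1 autophagy median was −0.36 and kept between −0.38 and −0.28 under all 19 alternative settings, and the lysosomal median between AA and IGF1 was −0.26, with a range of −0.26 to −0.18.

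The same was measured in single libraries. The median over autophagy members of the log2 difference from the CTR mean was −0.04, −0.02 and 0 in the CTR libraries, −0.10, −0.09 and −0.14 in AA, and −0.31, −0.27 and −0.26 in IGF1. The 3 groups did not overlap. How far the autophagy members stood apart from all genes in AA depended on the fit. With edgeR their AA median relative to that of all genes was −0.1, and it lay between −0.16 and 0.0 over the 19 alternatives. On the scale of the library medians, limma gave an AA median of −0.07 for all genes, −0.07 for the autophagy members and −0.11 for the lysosomal members. In IGF1 limma gave 0.03 for all genes and −0.3 for the autophagy members. For the lysosomal members the median difference from the CTR mean was −0.09, 0.06 and −0.01 in CTR, −0.09, −0.19 and −0.23 in AA, and 0.13, 0.05 and 0.07 in IGF1. Here the AA and IGF1 libraries were apart, while CTR libraries lay between them and touched or overlapped both.

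**Figure D2:**
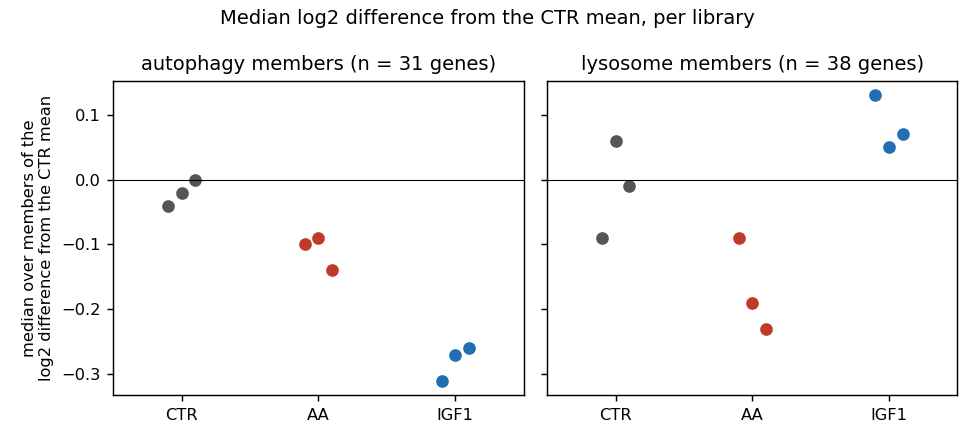
Each point is a library (x axis, group). The y axis is the median, over the 31 autophagy members (left) or the 38 lysosomal members (right), of the log2 difference of the normalized count plus 1 from the CTR mean. The autophagy median was lowest in the IGF1 libraries (−0.31 to −0.26), and the lysosomal median was lowest in AA (−0.23 to −0.09).

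None of the 6 members that the name rule grouped with the initiation kinase complex was called in any comparison. Of all genes, 13.1% were called in AA, 6.42% in IGF1 and 9.03% between them. The 6 include *ulk3*, a related kinase that is not a subunit of the complex (−0.76 in AA, 0.15 in IGF1). A further subunit, *rb1cc1*, is described with the wider lists. The median log2 fold-change of the 6 was −0.25 in AA and −0.32 in IGF1. For the kinases *ulk1a*, *ulk1b* and *ulk2* the log2 fold-change was −0.08, 0.03 and −0.04 in AA and −0.31, −0.33 and −0.32 in IGF1. For *atg13*, which binds ULK1, it was −0.42 in AA and −0.27 in IGF1. For *atg101* it was −0.81 in AA (edgeR adjusted p = 0.0707) and −0.56 in IGF1 (adjusted p = 0.263). All treated libraries of *atg101* lay below all CTR libraries. Beclin 1 (*becn1*), the core of the lipid kinase complex that nucleates the membrane, had normalized counts of 221, 180 and 189 in CTR, 207, 184 and 197 in AA, and 111, 162 and 157 in IGF1. Its IGF1 libraries lay below all CTR libraries, but the log2 fold-change of −0.47 (SE 0.19) had an adjusted p of 0.199 with edgeR.

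Of the WIPI proteins, which bind the lipid that the beclin complex makes, *wipi1* rose in AA and *wipi2* fell in IGF1. The level of *wipi1* (contig Duran_pc_TRINITY_DN1057_c1_g1_i1) was 45.0, 48.9 and 55.2 normalized counts in CTR, 138, 101 and 105 in AA, and 80.1, 57.0 and 77.7 in IGF1. All treated libraries were above all CTR libraries. It rose in AA by 1.19 on the log2 scale (SE 0.27, edgeR adjusted p = 0.00668), and in IGF1 the value was 0.56 (adjusted p = 0.266). Of its 3 contigs, 2 were called higher in AA. The AA call of *wipi1* was lost only in libraries thinned to the shallowest, among the 19 alternatives. The level of *wipi2* was 569, 533 and 564 in CTR, 516, 561 and 513 in AA, and 432, 362 and 380 in IGF1. The *wipi2* libraries of IGF1 lay below all others, and it fell by 0.50 in IGF1 (SE 0.14, edgeR adjusted p = 0.0382), with 3 of its 4 contigs called lower. That call was lost without CTR replicate 1, 2 or 3 or IGF1 replicate 2 or 3 (adjusted p = 0.0793 to 0.16). The difference between the WIPI paralogs was not tested.

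Of the 11 members grouped under conjugation and ATG8 processing, not all of them enzymes, only *atg16l2* was called. Its paralog ATG16L1 forms the scaffold at which ATG8 proteins are attached to the membrane. The log2 fold-change of *atg16l1* went the other way, 0.59 in AA and 0.68 in IGF1, without a call (edgeR adjusted p = 0.23 and 0.198). The level of *atg16l2* was 194, 188 and 187 in CTR, 123, 85.9 and 7.03 in AA, and 72.3, 111 and 101 in IGF1. The CTR libraries were the highest, and the lowest AA value was 1 raw count in AA replicate 3. It fell in AA by 1.17 on the log2 scale (SE 0.33, edgeR adjusted p = 0.0279), and by 0.90 without that library (adjusted p = 0.0168). The call was lost without CTR replicate 1, 2 or 3 or AA replicate 2 (adjusted p = 0.0616 to 0.0939). It was also lost with limma, with counts summed over all contigs of the name, and in libraries thinned to the shallowest. Of its 10 contigs, 5 were called lower in AA and all 10 had a log2 fold-change below 0, while 1 was called lower in IGF1. For the leading contig the IGF1 value was −1.03 with an adjusted p of 0.0603, and it passed with DESeq2 (adjusted p = 0.0194). For *atg3*, the enzyme that transfers ATG8 proteins to lipid, it was 0.11 in AA and −0.06 in IGF1.

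In the ATG8 family, whose proteins coat the autophagosome, *map1lc3a* fell in IGF1. Its level (contig Duran_pc_TRINITY_DN127_c2_g2_i3) was 964, 920 and 862 normalized counts in CTR, 889, 807 and 991 in AA, and 521, 564 and 530 in IGF1. The IGF1 libraries were far below the others, while AA and CTR overlapped. It fell in IGF1 by 0.77 on the log2 scale (SE 0.13, edgeR adjusted p = 0.000619), a fold-change of 0.587, and in AA the value was −0.06 (adjusted p = 0.81). The direct comparison of AA with IGF1 gave 0.71 (SE 0.13, adjusted p = 0.00152). Both calls held in all 19 alternatives, and all 3 contigs were called. Its relative *map1lc3b* had 0.19 in AA and −0.29 in IGF1 and was not called.

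Of the 4 receptors that carry cargo and mitochondria into autophagosomes, 3 fell in AA and 2 in IGF1, where 6.57% and 3.31% of all genes were called lower. Their median log2 fold-change was −0.78 in AA and −0.74 in IGF1. *bnip3*, a mitophagy receptor of the outer mitochondrial membrane, was at 150.2, 118 and 129 normalized counts in CTR, 80.4, 57.5 and 63.3 in AA, and 59.5, 65.5 and 61.5 in IGF1. Every treated library lay below every CTR library, and AA and IGF1 overlapped. The log2 fold-change of *bnip3* was −1.0 in AA (SE 0.26, edgeR adjusted p = 0.0142) and −1.10 in IGF1 (SE 0.24, adjusted p = 0.00737), and the difference between AA and IGF1 was 0.09 (SE 0.27, adjusted p = 0.893). Its AA call was lost without CTR replicate 1 or 3 or AA replicate 2 (adjusted p = 0.0554 to 0.0909) and its IGF1 call without IGF1 replicate 3 (adjusted p = 0.0537).

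Its relative *bnip3lb*, 1 of 2 copies of the mitophagy receptor NIX, followed the same pattern at lower counts. The level was 84.3, 89.1 and 76.7 in CTR, 36.0, 43.3 and 14.1 in AA, and 33.3, 19.9 and 42.0 in IGF1, and CTR did not overlap either treatment. The lowest values stood for 2 raw counts in AA replicate 3 and 7 in IGF1 replicate 2. *bnip3lb* fell by 1.20 in AA (SE 0.35, edgeR adjusted p = 0.0315) and by 1.27 in IGF1 (SE 0.33, adjusted p = 0.0238). The AA call was lost without CTR replicate 1, 2 or 3 or AA replicate 1 (adjusted p = 0.0736 to 0.102), and the IGF1 call without CTR replicate 1, 2 or 3 or IGF1 replicate 1 or 2 (adjusted p = 0.0605 to 0.102). The other copy, *bnip3la*, had a log2 fold-change of −0.09 in AA and −0.39 in IGF1 and was not called.

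The p62 gene *sqstm1*, whose protein binds ubiquitin-tagged cargo, was at 6362, 8748 and 9029 normalized counts in CTR, 4112, 6250 and 6356 in AA, and 5439, 8365 and 8378 in IGF1. Replicate 1 was the lowest in each group, and the highest AA library was just below the lowest CTR library. *sqstm1* fell in AA by 0.55 on the log2 scale (SE 0.17, edgeR adjusted p = 0.0431), with all 3 contigs called lower, and in IGF1 the value was −0.12. This was among the least stable calls, held in 8 of 19 alternatives and lost with DESeq2. It was also lost without CTR replicate 2 or 3, AA replicate 1 or 3, or IGF1 replicate 2 or 3 (adjusted p = 0.0507 to 0.192).

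**Figure D3:**
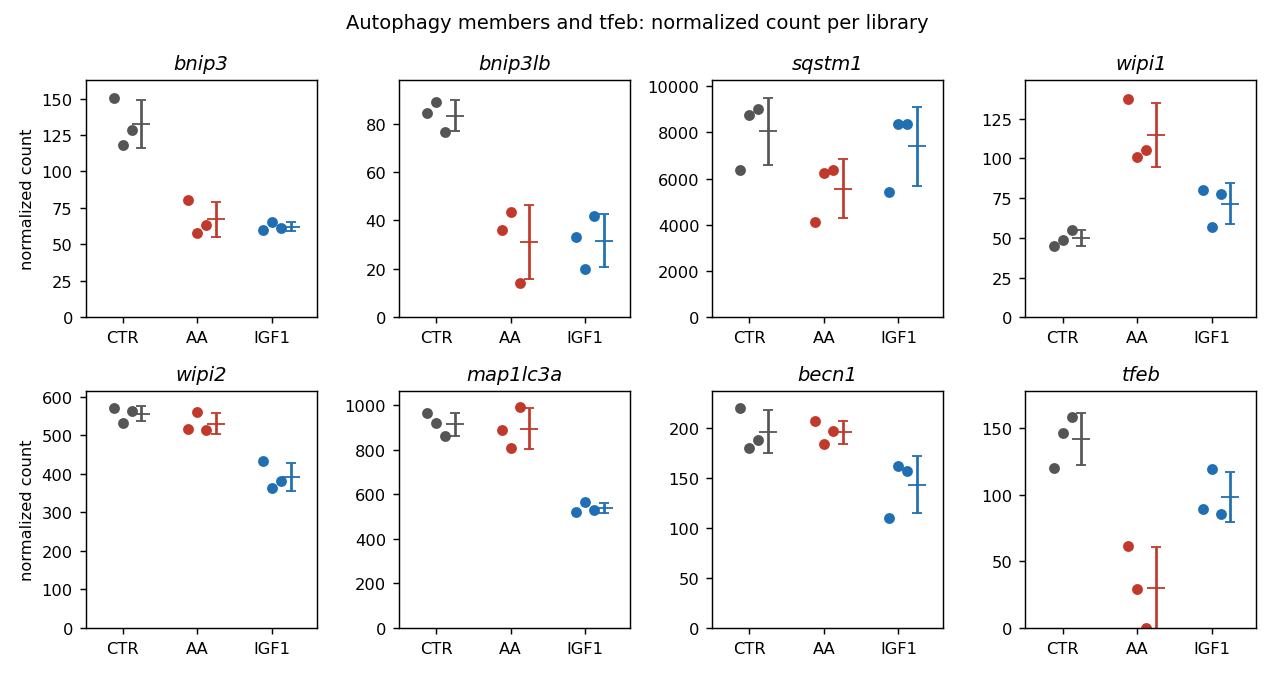
Normalized count (y axis, from 0) of 7 autophagy members and *tfeb* in each library (points) of CTR, AA and IGF1, with the mean and SD of 3 libraries beside them. *bnip3* and *bnip3lb* are lower in both treatments, *map1lc3a* and *wipi2* in IGF1, and *wipi1* is higher and *tfeb* lower in AA.

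Of the transcription factors of lysosomal genes, *tfeb* had the largest log2 fold-change of all 75 members in AA. Its level (contig Duran_pc_TRINITY_DN4824_c5_g1_i1) was 120.5, 147 and 159 normalized counts in CTR, 61.4, 29.1 and 0 in AA, and 89.3, 119.7 and 85.5 in IGF1. The AA libraries lay below all others, and their raw counts were 29, 43 and 0. *tfeb* fell in AA by 2.0 (SE 0.38, edgeR adjusted p = 0.0018), and by 1.79 without AA replicate 3 (adjusted p = 0.00116). Of its 3 contigs, 2 were called lower in AA, and 2 lower in AA than in IGF1. The AA call was lost in 1 of 19 alternatives, limma on log2 normalized counts. In IGF1 the value was −0.58 (adjusted p = 0.385), and AA minus IGF1 was −1.42 (SE 0.39, adjusted p = 0.0283). That difference was lost without CTR replicate 3, AA replicate 2, or any of the 3 IGF1 libraries (adjusted p = 0.0523 to 0.171). Its relatives *tfe3a* and *tfe3b* had −0.18 and −0.04 in AA and −0.49 and −0.37 in IGF1, and neither was called.

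Among the lysosomal proteases, 13 cathepsins and legumain, 1 rose and 2 fell in AA (21.4% of the 14, against 13.1% of all genes), and 1 fell in IGF1 (7.14%, against 6.42%). *ctsk*, cathepsin K, a strong collagen-degrading protease, was at 1945, 2089 and 2084 normalized counts in CTR, 1331, 1167 and 1069 in AA, and 2345, 1929 and 2143 in IGF1. The AA libraries were below all others. It fell in AA by 0.79 on the log2 scale (SE 0.13, edgeR adjusted p = 0.000399) to 0.58 of the CTR level and had 0.07 in IGF1. AA was lower than IGF1, with a log2 difference of −0.86 (SE 0.13, adjusted p = 0.000207). Both calls held in all 19 alternatives.

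*ctsba*, a copy of cathepsin B, was at 2645, 2797 and 2434 in CTR, 1994, 1660 and 1758 in AA, and 2251, 2337 and 2264 in IGF1. The groups did not overlap, with CTR highest and AA lowest. *ctsba* fell in AA by 0.56 (SE 0.12, edgeR adjusted p = 0.00323, held in all 19 alternatives), with −0.20 (adjusted p = 0.393) in IGF1, and 2 of its 5 contigs were called lower in AA. Legumain (*lgmn*), an asparagine-specific protease that activates cathepsins, was at 1935, 1804 and 1736 in CTR, 2608, 2604 and 2503 in AA, and 1714, 1738 and 1436 in IGF1. All AA libraries of *lgmn* were above all others, the opposite of the cathepsins just described. It rose in AA by 0.48 (SE 0.12, edgeR adjusted p = 0.0111) and was above IGF1 by 0.64 (SE 0.12, adjusted p = 0.0015). All 4 of its contigs were called in both comparisons, and the AA call was lost without CTR replicate 3 (adjusted p = 0.0726).

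The protease with the most counts, *ctsla* (a copy of cathepsin L), had a log2 fold-change of −0.17 in AA and −0.15 in IGF1 and was not called. *ctsd*, the aspartic protease cathepsin D, was at 4974, 5653 and 5330 in CTR, 4555, 4530 and 4429 in AA, and 5975, 5503 and 5674 in IGF1. Its log2 fold-change was −0.26 in AA and 0.10 in IGF1, with no call against CTR, while AA was lower than IGF1, with a log2 difference of −0.36 (SE 0.10, edgeR adjusted p = 0.0296) and 2 of 3 contigs called. That difference was lost without CTR replicate 3, any of the 3 AA libraries, or IGF1 replicate 1 or 3 (adjusted p = 0.0533 to 0.104). *ctsf*, cathepsin F, was at 309, 315 and 329 in CTR, 275, 213 and 176 in AA, and 206, 177 and 219 in IGF1. All treated libraries were below CTR. *ctsf* fell in IGF1 by 0.64 (SE 0.18, edgeR adjusted p = 0.0346), a call lost without any 1 of the CTR or IGF1 libraries (adjusted p = 0.0749 to 0.154), and had −0.50 in AA (adjusted p = 0.0889).

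The glycosidases split lysosomal sugars and lipids, and none of the 3 was called against CTR. Glucocerebrosidase (*gba*) had a log2 fold-change of −0.79 in AA (SE 0.34, edgeR adjusted p = 0.152) and −0.01 in IGF1. *hexa* and *hexb*, the subunits of hexosaminidase, had −1.01 and −0.10 in AA and −0.22 and 0.39 in IGF1. The level of *hexb* was 784, 845 and 717 in CTR, 732, 653 and 872 in AA, and 1113, 1029 and 933 in IGF1, with IGF1 above both other groups. AA was lower than IGF1, with a log2 difference of −0.49 (SE 0.14, edgeR adjusted p = 0.0332). This *hexb* call was lost without CTR replicate 3, AA replicate 1 or 2, or any of the 3 IGF1 libraries (adjusted p = 0.0524 to 0.142).

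Of the lysosomal membrane proteins, the calcium channel mucolipin 1 (*mcoln1a*) fell in IGF1. Its level was 148, 181 and 216 in CTR, 186, 162 and 134 in AA, and 92.1, 128 and 105 in IGF1. IGF1 lay below both other groups, which overlapped. The log2 fold-change of *mcoln1a* was −0.78 in IGF1 (SE 0.21, edgeR adjusted p = 0.0326), lost without CTR replicate 2 or 3 or IGF1 replicate 1 or 3 (adjusted p = 0.0957 to 0.238), and −0.16 in AA. Of its 3 contigs, 1 was called in IGF1. The other copy, *mcoln1b*, had a mean raw count of only 22.4 and was not called. Its log2 fold-change was −1.35 in AA (edgeR adjusted p = 0.203) and −1.41 in IGF1 (adjusted p = 0.172). Both treatments lay below CTR for *mcoln1b*, but its other contig had 0.19 in AA and −0.06 in IGF1. The LAMP proteins line the lysosomal membrane, and none was called against CTR: *lamp1a* had −0.33 in AA and −0.24 in IGF1, and *lamp2* −0.40 and 0.15. Between AA and IGF1, the log2 difference was 0.51 for *lamp1b*, higher in AA (edgeR adjusted p = 0.0429), and −0.55 for *lamp2*, lower in AA (adjusted p = 0.0389), where 2 of its 6 contigs were called. The *lamp1b* libraries were 493, 542 and 520 in AA and 398, 325 and 355 in IGF1, and the *lamp2* libraries 262, 306 and 288 in AA and 383, 459 and 413 in IGF1. For neither gene did the treatments overlap, but the *lamp1b* call was lost without CTR replicate 2 or 3, AA replicate 1 or 2, or IGF1 replicate 2 or 3 (adjusted p = 0.0516 to 0.15). The *lamp2* call was lost without CTR replicate 3 or any 1 of the AA or IGF1 libraries (adjusted p = 0.0535 to 0.129).

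The V-ATPase, which pumps protons into the lysosome, had 16 subunits among the members, without the names in capitals described below. Of the 16, 2 were called in AA and 1 in IGF1 (12.5% and 6.25%, against 13.1% and 6.42% of all genes). Their median log2 fold-change was −0.07 in AA and 0.13 in IGF1, with 12 of 16 above 0 in IGF1 (75.0%, against 54.8% of all genes). Between AA and IGF1 the median was −0.31, with 13 of 16 lower in AA (81.2%, against 51.3% of all genes). Among the membrane-embedded V0 subunits, *atp6v0ca*, a copy of the ring subunit c, was at 530.1, 584 and 483 in CTR, 694, 630.3 and 527 in AA, and 804, 901 and 788 in IGF1. The IGF1 libraries were the highest. *atp6v0ca* rose in IGF1 by 0.64 (SE 0.14, edgeR adjusted p = 0.00849), with 3 of 4 contigs called, and had 0.22 in AA. Its call was lost without CTR replicate 3 (adjusted p = 0.083).

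*atp6v0d1*, subunit d of the stalk, was at 211, 245 and 260.3 in CTR, 142, 168 and 169 in AA, and 252, 291 and 241 in IGF1. The AA libraries were below all others. *atp6v0d1* fell in AA by 0.60 (SE 0.18, edgeR adjusted p = 0.0371), and AA minus IGF1 was −0.71 (SE 0.18, adjusted p = 0.0198). The first call was lost without CTR replicate 2 or 3, AA replicate 1 or 2, or IGF1 replicate 3 (adjusted p = 0.0607 to 0.161), and the second without AA replicate 1 or IGF1 replicate 2 or 3 (adjusted p = 0.0519 to 0.0812). In the cytosolic V1 sector, *atp6v1g1* (subunit G) was at 345, 380.3 and 394 in CTR, 525, 459 and 619 in AA, and 439, 442 and 430.2 in IGF1. It rose in AA by 0.47 (SE 0.15, edgeR adjusted p = 0.0424), a call held in 8 of 19 alternatives and lost without any 1 of the CTR libraries, AA replicate 1 or 3, or IGF1 replicate 1 or 3 (adjusted p = 0.0514 to 0.126). The V0 subunit with the most counts, *atp6v0e1*, had −0.07 in AA and 0.18 in IGF1.

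**Figure D4:**
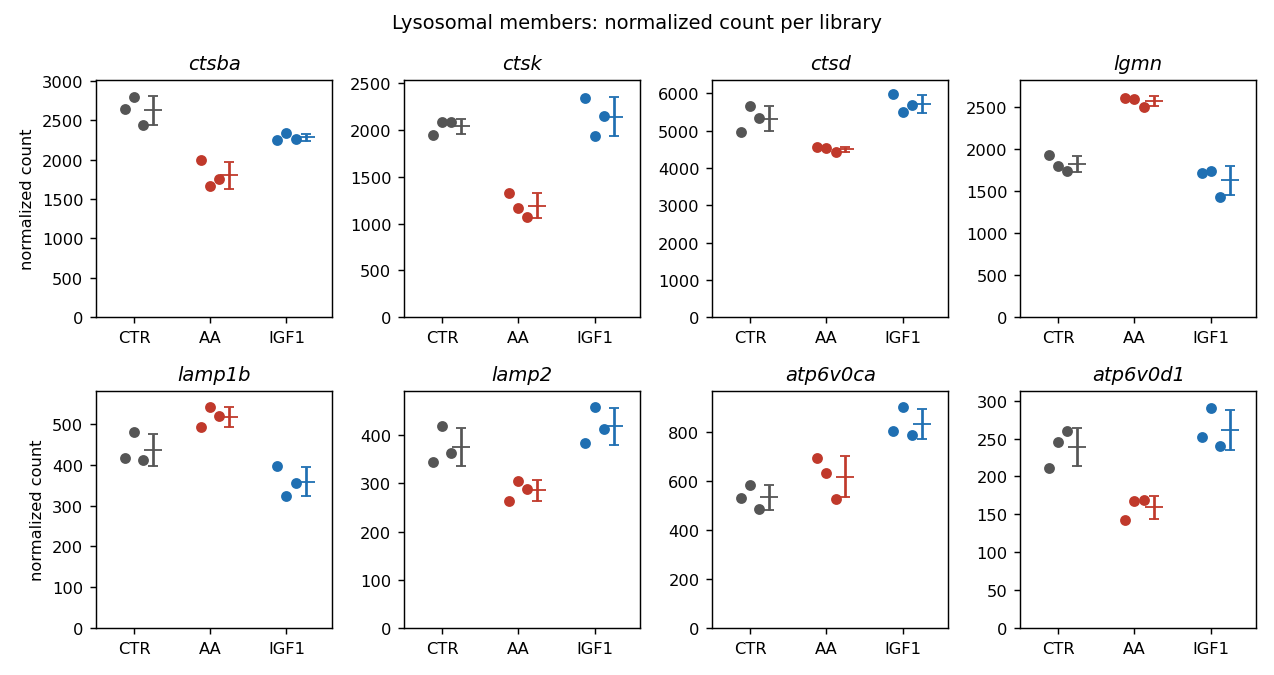
Normalized count (y axis, from 0) of 8 lysosomal members in each library (points) of CTR, AA and IGF1, with the mean and SD of 3 libraries beside them. *ctsba*, *ctsk* and *atp6v0d1* are lowest and *lgmn* is highest in the AA libraries, and *atp6v0ca* is highest in the IGF1 libraries.

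Across roles, the members called lower in both treatments were the mitophagy receptors *bnip3* and *bnip3lb*, and no member was called higher in both. This counts calls only. The libraries of *wipi1* and *atp6v1g1* lay above CTR and those of *atg16l2*, *tfeb* and *ctsba* below CTR in both treatments, with a call in AA alone. Those of *ctsf* lay below CTR in both, with a call in IGF1 alone. Other members also lay apart from CTR in the same direction in both treatments without a call. The share of all genes that did so was not computed. The 3 genes that only matched by name were not called in any comparison, with *gba2* at 0.67 in AA and 0.36 in IGF1. The rule takes lower-case names, and 8 names of the same families are written in capitals in the annotation. Of these, 7 passed the minimum count (ATG14, ATG2A, ATG2B, ATP6V0C, ATP6V0E1, ATP6V1A and ATP6V1C1), and none was called in any comparison. The log2 fold-changes of ATP6V0C, ATP6V0E1, ATP6V1A and ATP6V1C1 were −0.59, −0.65, 0.25 and −0.31 in AA. In IGF1 they were −0.19, −0.66, 0.50 and 0.08. Both treatments lay below CTR for ATP6V0E1. ATG14, ATG2A and ATG2B had −0.25, −0.10 and −0.23 in AA and −0.56, −0.47 and −0.44 in IGF1.

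Other genes of the pathways, from lists of 46 autophagy, 53 lysosome and 22 lysosomal nutrient-sensing genes, gave further calls. Of the autophagy genes, 6 fell and none rose in AA, and 6 fell and none rose in IGF1 (13.0% in each). Of all genes, 6.57% and 3.31% were called lower, and 13.1% and 6.42% in either direction. With DESeq2, 6 and 7 fell, and in libraries thinned to the shallowest 1 and 0. Over the alternative settings 1 to 6 fell in AA and 0 to 7 in IGF1, and 0 to 1 rose in each. The cargo receptor *tax1bp1b* fell by 0.78 in AA (edgeR adjusted p = 0.000324) and *calcoco1b*, an ER-phagy receptor in mammals, by 1.57 (adjusted p = 0.0069, with 0 counts in AA replicate 3). For *calcoco1b* the IGF1 value was −1.10 (edgeR adjusted p = 0.0532), with all IGF1 libraries below CTR. In IGF1, *calcoco1a* fell by 0.87 (adjusted p = 0.00321) and *zfyve1*, which marks sites of autophagosome formation, by 0.90 (adjusted p = 0.00824). *rb1cc1*, the FIP200 scaffold of the ULK complex, fell in both, by 0.54 in AA (adjusted p = 0.0238) and 0.63 in IGF1 (adjusted p = 0.0114). Others called lower in both included *nbr1a*, with −0.56 in AA (edgeR adjusted p = 0.0447) and −0.69 in IGF1 (adjusted p = 0.0179). *optn* had −0.74 in AA (adjusted p = 0.038) and −0.71 in IGF1 (adjusted p = 0.0498), and was also called in both.

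Of the 53 other lysosome genes, 12 fell and 2 rose in AA (26.4%, against 13.1% of all genes). In IGF1 none was called, against 6.42% of all genes, and 3 passed at an unadjusted p of 0.05 or less and 1 fell with DESeq2. Over the alternative settings 4 to 12 fell and 1 to 3 rose in AA, and 0 to 2 fell in IGF1. The falls in AA included the mannosidase *manba* (−0.96, edgeR adjusted p = 0.00132), the chloride transporter *clcn7* (−0.72, adjusted p = 0.0021) and the tetraspanin *cd63* (−0.48, adjusted p = 0.00673). The rises were the phospholipase *pla2g15* (0.98, adjusted p = 0.00164) and the serine carboxypeptidase *scpep1* (0.63, adjusted p = 0.0115). Between AA and IGF1, 3 of the 53 were higher in AA and 7 lower (18.9%, against 9.03% of all genes), led by *clcn7* (−0.87, adjusted p = 0.000516) and the mannosidase *man2b1* (−1.03, adjusted p = 0.000752). The alternatives gave 2 to 3 higher and 3 to 9 lower. Of the 22 nutrient-sensing genes, which tie amino acids at the lysosome to mTORC1, 3 fell and 1 rose in AA (18.2%, against 13.1% of all genes). None of the 22 was called in IGF1, against 6.42% of all genes, and 4 passed unadjusted and 1 fell with DESeq2. In AA the alternatives gave 1 to 3 lower and 0 to 1 higher. The Rag GTPase *rraga* fell by 0.67 (adjusted p = 0.00272), the Ragulator subunits *lamtor4* by 0.75 (adjusted p = 0.0176) and *lamtor3* by 0.67 (adjusted p = 0.0416), and *rragca* rose by 0.54 (adjusted p = 0.0457).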

How the data were processed

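Per the paper's methods, the authors trimmed paired-end reads (FastQC 0.11.8 and Trimmomatic), assembled them de novo with Trinity, annotated contigs against 3 fish proteomes and mapped each library to the contigs with Bowtie2; the counting tool is not given in the sources used here. The deposited raw counts are whole numbers per contig and library. The deposited normalized counts (a signal) are, as the authors made them, the raw counts over DESeq2's size factors, listed for 35575 contigs whose mean was at least 10, and return to raw counts within 0.01. Levels in the text are these normalized counts. They were compared between groups and not between genes, since contig lengths were not used here. Sequences and genome positions were not used here. Contigs of near-identical paralogs and isoforms can share reads, so values of paralog pairs are uncertain.

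Raw counts of all 9 libraries were fitted with edgeR 4.0.16 (R 4.3.3; TMM, quasi-likelihood F test, group only), with Benjamini-Hochberg adjustment over all contigs. A gene is its contig with the highest mean raw count, and shares of all genes use 1 contig for each of 13162 names. Class medians are descriptions. The study states 3 independent cultures and the labels do not tie libraries to them, so p-values measure the spread between these libraries. On simulated counts for the real depths, the fit recovered 5.48%, 29.0% and 69.2% of log2 changes of 0.58, 1 and 2 in AA and 4.11%, 27.4% and 83.1% in IGF1, with 8.22% and 8.64% of calls false. Only 73, 62 and 65 of 35575 contigs were changed by these sizes, a smaller share than was called in the real data. The rates at the real share of changed contigs were not tested.

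The members and lists were chosen with earlier results of these data known. Genes named in each comparison are, of every role, the member with the most counts and up to 3 with the smallest adjusted p. Also named are a set of core genes, and the 3 genes of the other lists with the smallest adjusted p in each direction. The genes *bnip3la*, *atg101*, *nbr1a*, *optn*, *ulk3*, *ulk4*, *atg16l1*, *mcoln1b*, *gba3* and *itgb2* were added after their values were seen. So were the names in capitals and those under the minimum. The alternatives were 2 other normalizations, 2 other filters, DESeq2 1.42.0, limma 3.58.1 on log2 of the normalized count plus 1, a replicate block, a fit of only the pair of groups in question, summed counts of all contigs of a name, thinning to the shallowest library, and each library left out. Figures used matplotlib 3.10.9. Values of 3 members are not reported here one by one and were left out of the plot of fold-changes; they stay in the counts and medians.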

Additional observations from a re-analysis of the deposited data

How the results depend on the processing

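Of the 27 calls of members, 6 held in all 19 alternatives (*ctsba* and *ctsk* in AA, *map1lc3a* in IGF1, and *map1lc3a*, *ctsk* and *lgmn* between AA and IGF1), 12 held in at least 15, and 17 were lost in libraries thinned to the shallowest. No value reversed past the threshold. Members called in AA numbered 11, but 7 with limma and 5 when thinned. In IGF1 they numbered 7, but 4 with limma, 4 with counts summed per gene name and 1 when thinned. Between AA and IGF1 they numbered 9, but 3 with only the 2 groups compared and 5 when thinned, and the split of 3 higher and 6 lower was 6 and 2 without normalization. With the 2-fold minimum, AA had 5, but 3 without normalization, 1 with limma and 1 when thinned; IGF1 had 2, but 1 with limma, 1 with summed counts and 0 when thinned; AA against IGF1 had 1, but 0 with limma, the 2 groups alone, summed counts or thinning. Thinning leaves fewer counts; the cause of the other shifts was not tested.

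The autophagy median in AA (−0.07) was 0.08 without normalization, −0.13 without the count filter, −0.13 with summed counts and −0.14 when thinned, and the lysosomal one (−0.12) was 0.02 without normalization. In IGF1 the autophagy median (−0.31) was −0.34 without normalization, −0.34 with summed counts and −0.28 when thinned. Between AA and IGF1 the autophagy median (0.09) was 0.26 without normalization, 0.04 without the filter and 0.16 when thinned, and the lysosomal one (−0.28) was −0.09 without normalization.

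With each library left out in turn, members called ranged from 4 to 10 in AA, 2 to 8 in IGF1 and 3 to 9 between them, and with the 2-fold minimum from 2 to 5, 0 to 3 and 0 to 1. The AA count was 7, 6 and 4 without CTR replicates 1, 2 and 3. The IGF1 count was 4, 3 and 2 without CTR replicates 1, 2 and 3, and 4, 4 and 3 without IGF1 replicates 1, 2 and 3. The count between AA and IGF1 was 4 without CTR replicate 3, 4 without IGF1 replicate 2 and 3 without IGF1 replicate 3. The medians ranged from −0.11 to −0.05 (autophagy) and −0.17 to −0.07 (lysosome) in AA, from −0.31 to −0.24 and 0.07 to 0.15 in IGF1, and from 0.08 to 0.12 and −0.33 to −0.23 between them.

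Libraries with the same replicate number correlated weakly in their deviations from the group means, between −0.047 and 0.113 over 9 pairs, 2 of them over 0.1. Pairs with unlike numbers lay between −0.09 and 0.078. Between CTR and IGF1 the same-number values (0.113, 0.036 and 0.102) were above all unlike-number values (0.001 or lower). Whether these groups share cultures was not tested. With the replicate number as a block, 12, 8 and 12 members were called, 4, 2 and 1 with the 2-fold minimum, and the medians were −0.07 and −0.12, −0.32 and 0.11, and 0.10 and −0.28. A depth of 1366043 counts in AA replicate 3 limits the low members most, *tfeb*, *atg16l2*, *bnip3* and *bnip3lb* being under 10 raw counts there.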
